A study of Homo sapiens with 6 samples.

Results

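LATS1, TEAD1 and TEAD4, 3 genes of the Hippo pathway, gave 8 of the 9857 circular RNAs (circRNAs) listed for BEAS-2B, a cell line made from normal human bronchial epithelium by immortalisation. A circRNA is a closed transcript, made when an exon's end is spliced back to the start of the same exon or of an exon before it. Its count is the number of reads spanning that back-splice junction. The members are the circRNAs whose host gene, as the authors' annotation names it, is LATS1 (4 circles), TEAD1 (2 circles) or TEAD4 (2 circles). The 2 groups, of 3 libraries each, are cells grown with 2.0 µM cadmium and cells grown with 0.0 µM, both over 20 weeks. All libraries were made from total RNA after removal of ribosomal RNA and digestion of linear RNA with RNase R. Whether libraries of the same group stem from separate cultures is not said in the labels, so the spread behind the p-values may be technical.

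In the Hippo pathway the kinases LATS1 and LATS2, switched on by the kinases STK3 and STK4 with their partner SAV1, phosphorylate the coactivators YAP1 and WWTR1 (TAZ) and so keep them out of the nucleus. Unphosphorylated YAP1 and WWTR1 enter the nucleus and bind the TEAD transcription factors, of which TEAD1 and TEAD4 are members, at genes of growth and adhesion. In epithelia the pathway is known for linking cell contact and polarity to proliferation. Back-splice junction reads measure circles only, so nothing here is a level of LATS1, TEAD1 or TEAD4 messenger RNA or protein.

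The circles came from few exons, and each circle shared an end with another of its gene, which makes 4 pairs. Positions are on GRCh38, counted from 1, and exon numbers follow the GENCODE 29 transcripts LATS1-207, TEAD1-206 and TEAD4-202. Of the LATS1 circles (chromosome 6, minus strand), hsa_circ_0002101 is exon 2 alone (chr6:149701779-149702266, 488 bases) and novel_circ_0033050 joins exons 2 and 3 (chr6:149695074-149702266, 636 bases by its annotated exons, given as 148 in the authors' table). Further downstream, hsa_circ_0078224 joins exons 5 to 7 (chr6:149676260-149680457, 873 bases). The fourth, novel_circ_0033047 (chr6:149676260-149678745, 354 bases), ends after the same exon 7 but starts between exons 5 and 6, in a stretch of 64 bases that 0 LATS1 transcripts in GENCODE 29 hold as an exon. The authors' table classes that circle as intronic.

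Of the TEAD1 circles (chromosome 11, plus strand), novel_circ_0002248 is exon 3 alone (chr11:12764179-12764434, 256 bases) and hsa_circ_0007058 joins exons 2 and 3 (chr11:12675409-12764434, 409 bases) over a genomic span of 89026 bases. Only 2 of 8907 exonic circles matched to a transcript spanned more. Of the TEAD4 circles (chromosome 12, plus strand), novel_circ_0005024 is exon 3 alone (chr12:2994738-2994992, 255 bases) and hsa_circ_0007035 runs from exon 3 to exon 10 (chr12:2994738-3022017, 926 bases).

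**Figure D1:**
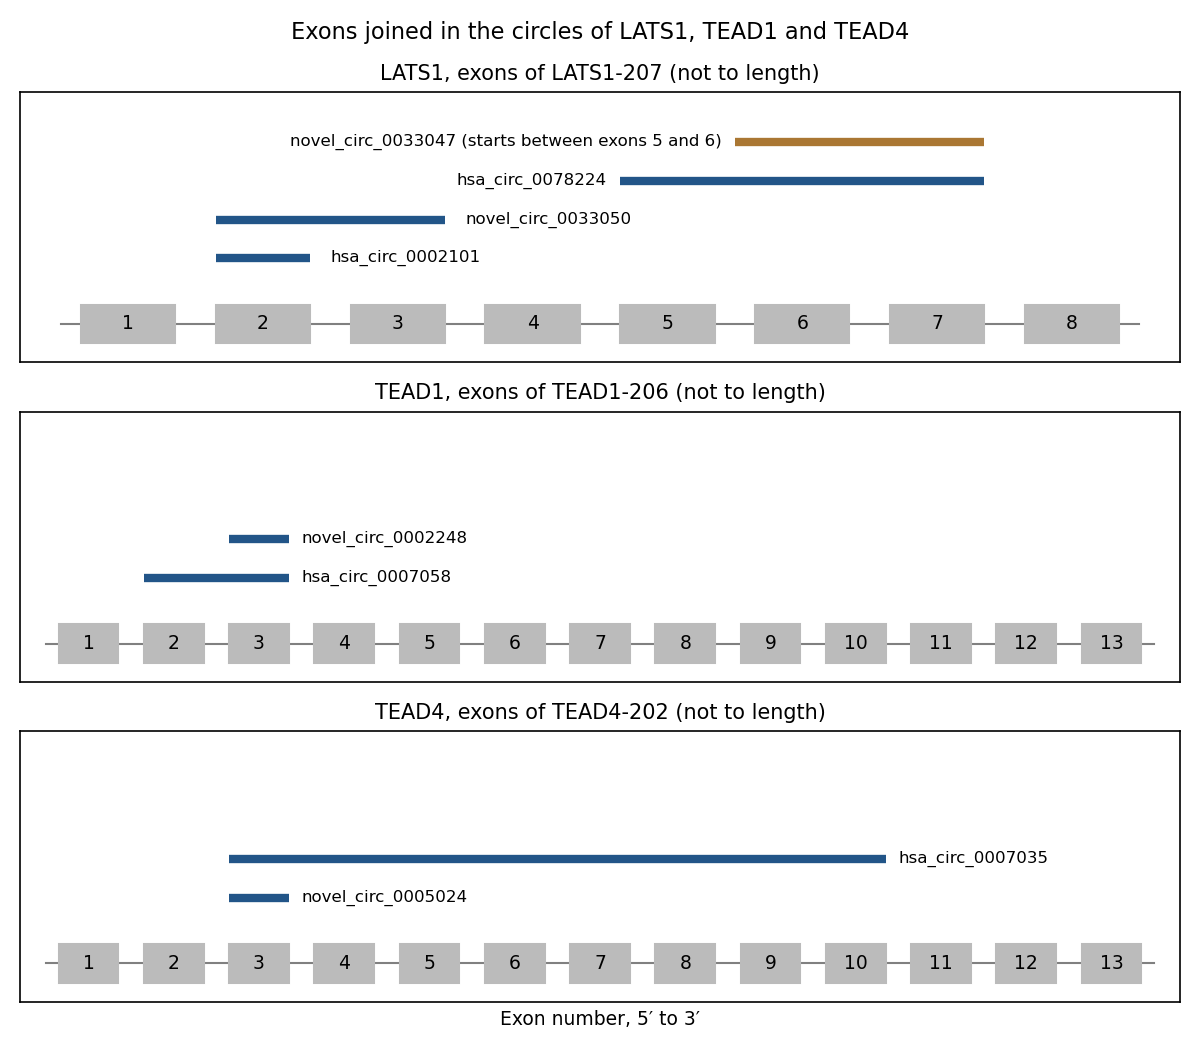
Exons joined in each circle, drawn along the exon numbers of 1 transcript per gene (horizontal axis, 5′ to 3′, not to length), with each circle as a bar. The TEAD1 and TEAD4 circles all hold exon 3, and the LATS1 circles fall into a pair that starts at exon 2 and a pair that ends at exon 7.

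The back-splice junctions below show how each circle is told from the linear transcript. Each line gives 15 bases before the junction in lower case, which end the last exon of the circle, and 15 bases after it in capitals, which start its first exon. They were read from the GENCODE 29 transcripts. No sequence is given for novel_circ_0033047, whose first stretch has the bounds of no LATS1 exon in GENCODE 29.
LATS1 hsa_circ_0002101, exon 2 to exon 2: gctggatttgatgagAGTTAATTATTTATA
LATS1 novel_circ_0033050, exon 3 to exon 2: ccagcatgaaaccagAGTTAATTATTTATA
LATS1 hsa_circ_0078224, exon 7 to exon 5: gaaacacaaatgaagGTTGGATTATCTCAA
TEAD1 novel_circ_0002248, exon 3 to exon 3: aaggcaaaatgtatgGTTTATTTTCTTGAA
TEAD1 hsa_circ_0007058, exon 3 to exon 2: aaggcaaaatgtatgGACTGTTGCTGCCGC
TEAD4 novel_circ_0005024, exon 3 to exon 3: agggcaagatgtatgGTCCAACGAGCGCTC
TEAD4 hsa_circ_0007035, exon 10 to exon 3: cttgtgaagttctggGTCCAACGAGCGCTC
The same capitals mark the circles that share a start (the pair of LATS1 exon 2 circles, and the pair from TEAD4). The same lower-case letters mark the TEAD1 circles, which share their end. None of the 7 sequences occurred in any of 206694 linear transcripts, and each differed from every other by at least 8 of 30 bases, also between TEAD1 and TEAD4.

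The exon 3 that forms a circle by itself in TEAD1 is the counterpart of the exon 3 that does so in TEAD4, the paralogous gene. It holds the annotated start of translation and the first part of the DNA-binding TEA domain. The last 202 bases of exon 3 are shown for each gene, all coding (TEAD1 chr11:12764233-12764434, TEAD4 chr12:2994791-2994992, plus strand). Aligned without gaps from the shared end of the exon, 123 of 202 bases are identical (60.9%), shown in capitals.
TEAD1: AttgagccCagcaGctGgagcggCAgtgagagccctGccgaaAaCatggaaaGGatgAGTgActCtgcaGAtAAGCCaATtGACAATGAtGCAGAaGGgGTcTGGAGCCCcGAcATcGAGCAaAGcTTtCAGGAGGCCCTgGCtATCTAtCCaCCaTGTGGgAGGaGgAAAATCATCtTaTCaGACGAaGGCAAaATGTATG
TEAD4: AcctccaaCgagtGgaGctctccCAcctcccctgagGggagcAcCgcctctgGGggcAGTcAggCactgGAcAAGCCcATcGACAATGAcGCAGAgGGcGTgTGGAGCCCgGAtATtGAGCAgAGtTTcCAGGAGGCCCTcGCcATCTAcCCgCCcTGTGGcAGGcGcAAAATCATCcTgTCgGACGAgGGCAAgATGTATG
The identical bases gather in the later part of the exon, where most differences stand alone between runs of capitals.

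Beside position, the members shared the exon that holds the start codon and, for the TEAD circles, long flanking introns. Of the 7 members on annotated exons, 6 hold the annotated start codon, against 13.5% of 8758 circles matched to coding transcripts. Exon 3 of TEAD1 lies between introns of 88617 and 97815 bases, longer than 98.3% of upstream and 99.0% of downstream introns flanking circles. For TEAD4 exon 3 these introns measured 34697 and 16011 bases, and the median over all matched circles was 6461 upstream and 5826.5 downstream. The pair that starts at LATS1 exon 2 follows an intron of 15582 bases. By contrast, 574 bases lie before exon 2 of TEAD1, a shorter upstream intron than that of almost all circles (2.0% are shorter). The number of exons also varied among the members: 3 of the 7 are circles of 1 exon, a form that made up 3.3% of all matched circles. These are descriptions, since the 6 circles with a start codon share only 3 exons.

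Library totals ran from 133185 to 225769 junction reads, with a median of 7 reads per circRNA and library. The table holds 0 values of 1, so a listed 0 may stand for few reads. Weighted shares of junction reads over 6090 circRNAs were 46.1% and 48.9% in control replicates 1 and 3 and 29.2% to 31.7% in the other 4 libraries, so these controls stood apart in that share. Of 11 epithelial marker genes 0 had a listed circRNA, as had 0 of 4 immune and 0 of 3 endothelial markers, so circles cannot check the labelled cell type. ZEB1, ZEB2 and BNC2, 3 of 11 fibroblast and mesenchymal markers, gave 77 to 125 reads in controls and 47 to 71 with cadmium, and their part in the results below was not tested.

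Summed over its circles, each host was tested among 3008 host genes, and none of the 3 passed an adjusted p of 0.05, which 0.233% of all hosts did (0.0332% higher and 0.199% lower). TEAD1 gave the most junction reads of the 3 and TEAD4 the fewest. Each circle has 1 junction, so junction reads scaled to a common library size (CPM) carry no length term. By this measure TEAD1 stood above 84.0% of 3742 hosts, LATS1 above 63.8% and TEAD4 above 27.5%. In controls the order TEAD1, LATS1, TEAD4 held without overlap between neighbours. With cadmium the range of TEAD1 overlapped those of both others, because of the library of cadmium replicate 3.

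LATS1, the kinase gene, gave 58, 30 and 28 reads in the controls, in the order of replicates 1 to 3, and 18, 14 and 16 with cadmium in the same order, which is kept below. In CPM the controls were at 272, 223 and 178 and the cadmium libraries at 139, 107 and 104. Every cadmium library lay below every control, a separation in this direction seen for 10.0% of hosts. The means were 224 ± 46.6 and 117 ± 19.3 CPM (SD, n = 3 each), a log2 fold change of -0.95 (SE 0.29, edgeR unadjusted p = 0.00499, adjusted p = 0.203). The adjusted p did not pass the threshold, and 12.5% of all hosts had an unadjusted p under 0.05 (6.58% lower and 5.92% higher). The sum holds the 2 exon 2 circles, listed only through their controls, so a lower value with cadmium was partly built in. They had 48 reads in controls and 4 with cadmium, against 68 and 44 for the circles ending at exon 7. Without circRNAs listed at 0 in any library, which drops the exon 2 circles, LATS1 was at -0.31 (edgeR adjusted p = 0.739). In bulk RNA, fewer cells with a circle and fewer circles per cell cannot be told apart. Counting error alone is wide here, since 14 reads carry an exact 95% Poisson interval of 7.65 to 23.5, which covers counting error only.

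TEAD4, a transcription factor gene, went the other way on the same scale. It had 6, 3 and 2 reads in the controls and 11, 7 and 9 with cadmium. These are 28.1, 22.3 and 12.7 CPM against 85.0, 53.6 and 58.7 CPM. Every cadmium library lay above every control, as for 9.31% of hosts. The mean was 21.1 ± 7.76 CPM in controls and 65.8 ± 16.9 CPM with cadmium (SD, n = 3 each), a log2 fold change of 1.57 (SE 0.61, edgeR unadjusted p = 0.0208, adjusted p = 0.311). Of all hosts, 5.92% were higher at an unadjusted p under 0.05. With 38 reads in all, TEAD4 is the most thinly read of the 3 hosts and was not tested under edgeR's default minimum count. Its sum holds hsa_circ_0007035, which is listed only through its cadmium libraries, so a higher value with cadmium was partly built in. The groups of the other TEAD4 circle overlapped.

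TEAD1 gave 131, 62 and 88 reads in the controls and 65, 38 and 11 with cadmium. The controls stood at 613, 461 and 561 CPM and the cadmium libraries at 502, 291 and 71.7 CPM. The groups overlapped, because cadmium replicate 1 lay above control replicate 2. The log2 fold change was -0.96 (SE 0.51, edgeR adjusted p = 0.512). The sum holds the exon 3 circle, listed only through its controls, so a lower value with cadmium was partly built in. The size of the TEAD1 fold change depended on single libraries: without cadmium replicate 3 it was -0.47 (edgeR adjusted p = 0.434), and without cadmium replicate 1 it was -1.65 (edgeR adjusted p = 0.253).

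**Figure D2:**
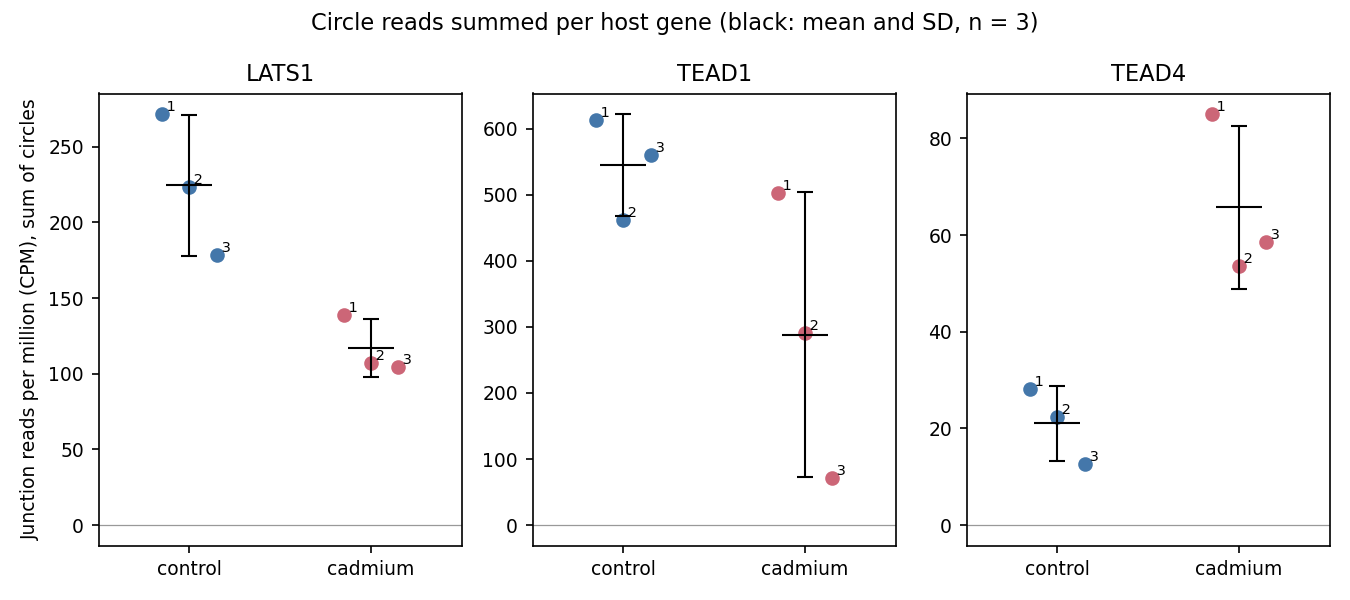
Circle reads summed per host gene in CPM (vertical axis) by group (horizontal axis). Points are libraries with their replicate number, and black marks give the mean and SD (n = 3). The cadmium points of LATS1 all lie below its controls and those of TEAD4 all above, and cadmium replicate 3 of TEAD1 lies far below the rest.

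Within LATS1 the reads of the exon 2 circles were few or listed at 0 with cadmium, while those of the exon 7 circles overlapped between groups. The exon 2 circle hsa_circ_0002101 had 7, 6 and 4 reads in the controls and is listed at 0 in all 3 cadmium libraries. Listing of this kind, in every control and in no cadmium library, was found for 212 of 9857 circRNAs (2.15%). It did not pass the filter on low counts. With no filter it had an edgeR unadjusted p of 0.00262 and an adjusted p of 0.119, and no fold is given against a group listed at 0. This circle is listed only through its controls, since every listed circRNA has reads in each library of at least 1 group. A lower value with cadmium was therefore partly built in, and this p cannot be read as support on its own. The circle of exons 2 and 3, novel_circ_0033050, had 13, 10 and 8 reads in the controls and 0, 4 and 0 with cadmium, with 63.3, 78.6 and 53.1 CPM in the controls. All cadmium libraries lay below all controls, as for 7.94% of circRNAs tested. Its log2 fold change was -2.58 (SE 0.90, edgeR unadjusted p = 0.0125, adjusted p = 0.440, over 6182 circRNAs). Its size rests on cadmium replicate 2, the only cadmium library with reads: without it the fitted value was -6.31 (edgeR unadjusted p = 0.000523, adjusted p = 0.289), where all cadmium values left are 0. By limma it was -4.26 (unadjusted p = 0.114, adjusted p = 0.687). It entered the test through its controls, so a lower value with cadmium was partly built in, and at an unadjusted p under 0.05 stood 4.21% of circRNAs in this direction.

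At the other end of LATS1, hsa_circ_0078224 had 21, 12 and 10 reads in the controls and 11, 6 and 8 with cadmium. In CPM these were 102, 94.3 and 66.3 against 88.3, 47.2 and 54.3, ranges that overlap. The log2 fold change was -0.48 (SE 0.42, edgeR adjusted p = 0.794), and -0.80 without cadmium replicate 1 (edgeR adjusted p = 0.709). The circle with the unannotated start, novel_circ_0033047, had 17, 2 and 6 reads in the controls and 7, 4 and 8 with cadmium. Its controls spread from 15.7 to 82.8 CPM and enclosed all cadmium values. Its log2 fold change was -0.05 (SE 0.58, edgeR adjusted p = 0.990), and the sign turned in several of the alternative fits.

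Taken by their place in the gene, a grouping made after the values were seen and so given without a test, the 2 exon 2 circles had 20, 16 and 12 reads in the controls and 0, 4 and 0 with cadmium. The 2 circles ending at exon 7 had 38, 14 and 16 reads against 18, 10 and 16. The exon 2 circles made up 43.6% ± 9.44 of LATS1 junction reads in the 3 controls and 9.52% ± 16.5 in the 3 cadmium libraries (mean ± SD). Over each group the exon 2 circles had 48 reads in controls and 4 with cadmium, and the exon 7 circles 68 and 44.

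In TEAD1 the exon 3 circle novel_circ_0002248 was the most abundant member, above 94.2% of all circRNAs. It had 98, 52 and 73 reads in the controls and 50, 30 and 0 with cadmium. The controls lay at 477, 409 and 484 CPM and the cadmium libraries at 401, 236 and 0 CPM. All cadmium values were below all controls, as for 7.94% of circRNAs tested (for 7.41% all were above). With its 0 in cadmium replicate 3, this circle is listed only through its controls. A lower value with cadmium was therefore partly built in. The listed 0 in cadmium replicate 3 stands where the other cadmium libraries imply 47.7 reads. Zeros of this kind, with 10 or more reads implied by the other libraries of the group, numbered 47 in cadmium replicate 3 and 19 to 33 in the other 5 libraries. The log2 fold change was -1.14 (SE 0.95, edgeR adjusted p = 0.809). Without cadmium replicate 3 it was -0.54 (SE 0.24, edgeR unadjusted p = 0.0445, adjusted p = 0.614), and without cadmium replicate 1 it was -2.03 (edgeR adjusted p = 0.711), so the size of the difference rests on single libraries.

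The longer TEAD1 circle, hsa_circ_0007058, kept 11 reads in the same cadmium replicate 3. It had 33, 10 and 15 reads in the controls and 15, 8 and 11 with cadmium. In CPM the controls stood at 161, 78.6 and 99.5 and the cadmium libraries at 120, 62.9 and 74.6, with overlap. Its log2 fold change was -0.44 (SE 0.40, edgeR adjusted p = 0.814). Without control replicate 1 it was -0.05 (edgeR adjusted p = 0.992) and without cadmium replicate 1 it was -0.76 (edgeR adjusted p = 0.711). Where both TEAD1 circles were listed, the exon 3 circle took 74.8%, 83.9% and 83.0% of TEAD1 junction reads in the controls. In cadmium replicates 1 and 2 it took 76.9% and 78.9%. The proportion of the 2 circles was therefore alike in those 5 libraries, within 74.8% to 83.9%.

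In TEAD4 the exon 3 circle and the long circle had equal totals, 19 reads each. The long circle hsa_circ_0007035 had 3, 0 and 0 reads in the controls and 7, 5 and 4 with cadmium, which are 14.6, 0 and 0 CPM against 56.2, 39.3 and 27.1 CPM. All cadmium libraries lay above all controls, as for 8.80% of all listed circRNAs. The exon 3 circle novel_circ_0005024 had 3, 3 and 2 reads in the controls and 4, 2 and 5 with cadmium, and its groups overlapped. Neither passed the filter on low counts. With no filter the long circle had a log2 fold change of 2.58 (SE 1.1, edgeR unadjusted p = 0.0283, adjusted p = 0.382) and the exon 3 circle 0.67 (SE 0.93, edgeR unadjusted p = 0.479, adjusted p = 0.859). The long circle is listed only through its cadmium libraries, so a higher value with cadmium was partly built in. The higher TEAD4 sum with cadmium came mainly from the long circle, whose groups were separated by 1 read (3 in the highest control and 4 in the lowest cadmium library).

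**Figure D3:**
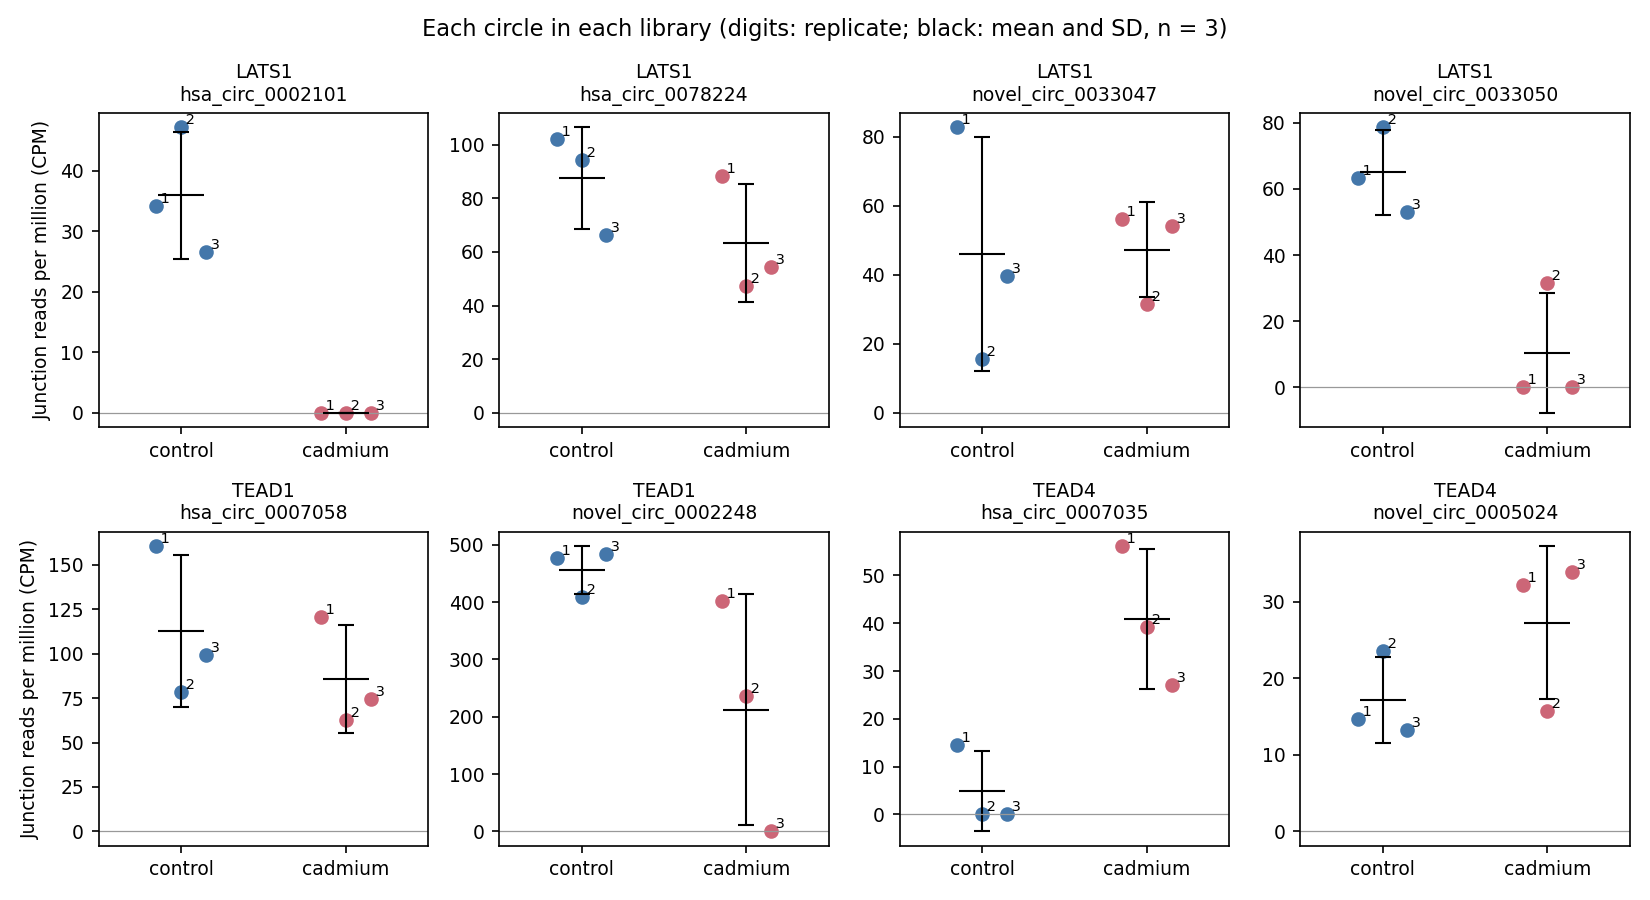
CPM (vertical axes, scaled per panel) of each of the 8 circles by group. Points are libraries with their replicate number, and black marks give the mean and SD (n = 3). The LATS1 exon 2 circles (hsa_circ_0002101 and novel_circ_0033050) and the TEAD4 circle hsa_circ_0007035 have listed zeros in 1 group, and TEAD1 novel_circ_0002248 has a single 0 in cadmium replicate 3.

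Across the 8 circles, 4 had groups that did not overlap (3 lower and 1 higher with cadmium), against 18.0% of all 9857 listed circRNAs. Of all listed circRNAs, 9.22% were lower and 8.80% higher with cadmium without overlap. All 4 members without overlap are listed only through the group where they are higher. Every listed circRNA has reads in each library of at least 1 group, so a sparse circle with zeros elsewhere is separated by the listing itself. None passed an adjusted p of 0.05 by edgeR, which 0.0809% of the circRNAs tested did. At an unadjusted p under 0.05 stood 1 of the 5 members that passed the filter, novel_circ_0033050, and 8.30% of all circRNAs tested. By limma none of the 5 passed, and DESeq2 gave an adjusted p for the 2 TEAD1 circles only (0.997 each). The authors' deposited table marks 3 of the 8 as significant, hsa_circ_0002101 (log2 fold change -1.12, unadjusted p = 0.00748), novel_circ_0033050 (-1.13, unadjusted p = 0.0120) and hsa_circ_0007035 (0.95, unadjusted p = 0.0290). In the authors' deposited table that mark goes with an unadjusted p under 0.05 and stands at 506 of 9857 circRNAs (5.13%), and an adjusted p is not given for these 3. In the same order, their deposited group means were 5.10, 9.22 and 0.687 normalised reads in controls and 0, 1.48 and 5.79 with cadmium. How the deposited fold changes were computed is not stated, so their size cannot be set against the edgeR values.

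The share of each circle in its host's junction reads was compared over libraries to ask whether circles of a gene kept their proportions. Of 6 shares tested by two-sided exact permutation tests, none could go below p = 0.1 with 3 libraries against 3. The LATS1 circle hsa_circ_0002101 took 15.5% ± 4.09 in controls and 0% with cadmium, and hsa_circ_0078224 took 37.3% ± 2.35 and 51.3% ± 9.20 (SD, n = 3 each, exact permutation p = 0.1 for both, adjusted p = 0.3). For hsa_circ_0002101, listed in every control and at 0 in every cadmium library, the separation was fixed by the listing, so its p is no support. The shares of a gene's circles make up a whole, so the lower shares of some LATS1 circles raise those of the others. The share of novel_circ_0033047 was 19.1% ± 11.5 and 39.2% ± 10.7 (SD, n = 3 each, exact permutation p = 0.2, adjusted p = 0.3). For novel_circ_0033050 it was 28.1% ± 5.47 and 9.52% ± 16.5 (SD, n = 3 each, exact permutation p = 0.3). The TEAD4 long circle took 16.7% ± 28.9 and 59.8% ± 13.9 (SD, n = 3 each, exact permutation p = 0.2). For the TEAD1 exon 3 circle the shares were 80.5% ± 4.99 and 52.0% ± 45.0 (SD, n = 3 each, exact permutation p = 0.3), and the spread with cadmium is that of the listed 0.

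A ratio between hosts within a library needs no scaling. The log2 ratio of LATS1 to TEAD1 reads was -1.18, -1.05 and -1.65 for the controls and -1.85, -1.44 and 0.54 for the cadmium libraries. The means, -1.29 ± 0.32 and -0.92 ± 1.28 (SD, n = 3 each), did not differ beyond the spread (two-sided exact permutation p = 0.9). Without cadmium replicate 3 the difference changed sign, from 0.37 to -0.35. Ratios to TEAD4 were not computed because it had under 3 reads in control replicate 3, so 1 of 3 pairs was compared.

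The authors' annotation also gives, for each circle and library, a number of non-junction reads. How these were counted is not stated, and they are taken here as reads at the circle's locus. In the weighted share, junction reads count with weight 2 in both numerator and denominator, and non-junction reads with weight 1 in the denominator. It was taken over circles listed in every library, which are hsa_circ_0007058 for TEAD1, novel_circ_0005024 for TEAD4 and the 2 exon 7 circles for LATS1. For TEAD1, 22, 81 and 8 non-junction reads were counted in the controls and 89, 98 and 98 with cadmium. Its share was 75.0%, 19.8% and 78.9% in the controls and 25.2%, 14.0% and 18.3% with cadmium (two-sided exact permutation p = 0.2, adjusted p = 0.6). Control replicate 2 lay among the cadmium libraries. The 2 high values were in control replicates 1 and 3, the libraries that also stood apart over all circRNAs (46.1% and 48.9%), and the part of these libraries in the difference was not tested.

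For LATS1 the weighted share was 71.7%, 43.8% and 84.2% in the controls and 62.1%, 54.1% and 53.3% with cadmium (two-sided exact permutation p = 0.5, adjusted p = 0.7). The difference of means, -10.1 percentage points, was -1.24 without control replicate 3 and -21.5 without control replicate 2. Its 2 circles share an end, so some non-junction reads may be counted for both. TEAD4 stayed low in every library, at 6.12%, 4.96% and 8.51% in the controls and 8.42%, 3.57% and 5.71% with cadmium (exact permutation p = 0.7, adjusted p = 0.7). Its locus had 43 to 165 non-junction reads against 2 to 5 junction reads. The TEAD4 share was thus below that of all circRNAs (29.2% to 48.9%) in each of the 6 libraries, while that of LATS1 was above it in each.

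**Figure D4:**
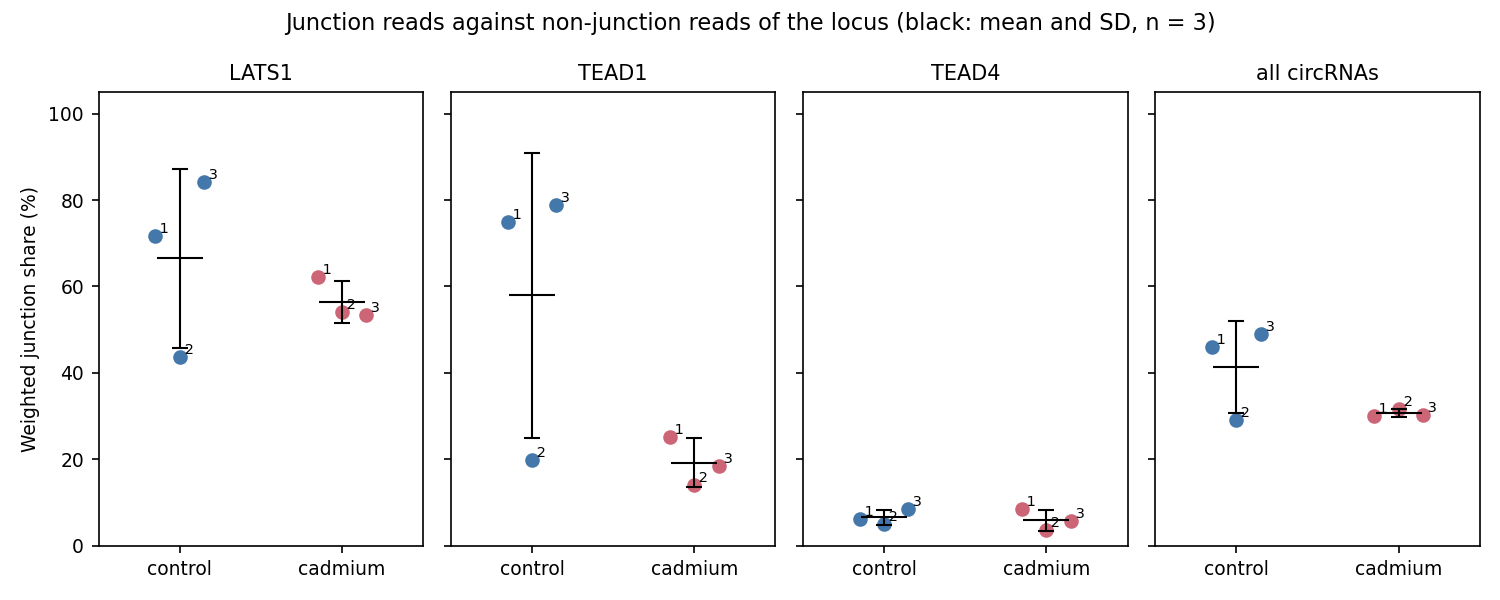
Weighted junction share in percent (vertical axis) by group for the circles listed in every library of LATS1, TEAD1 and TEAD4, and over 6090 circRNAs. Points are libraries with their replicate number, and black marks give the mean and SD (n = 3). Control replicates 1 and 3 are high for TEAD1, LATS1 and all circRNAs, and TEAD4 stays between 3.57% and 8.51%.

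Other genes of the pathway were read from a list of 103 genes, the 3 members among them. Of these, 46 had a circRNA (157 in all) and 43 were tested as hosts. None rose and none fell at an adjusted p under 0.05 by edgeR. At an unadjusted p under 0.05 were 2 higher and 3 lower, 11.6% of the 43, which is near the 12.5% of all hosts. The log2 fold change was above 0 for 16 and below 0 for 27, with a median of -0.13, where the median of all hosts was 0.00129. Groups did not overlap for 10 of the 43 (23.3%), and for 19.3% of all hosts.

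Among the core kinases and their scaffolds, 8 of 9 genes were tested, with 2 values above 0 and 6 below. LATS2, the paralogue of LATS1, has a single circle and had 16, 19 and 15 reads in the controls and 24, 20 and 31 with cadmium. Its values were 104 ± 34.0 and 180 ± 24.9 CPM (SD, n = 3 each), and each cadmium library lay above each control, as for 9.31% of all hosts tested. The log2 fold change was 0.83 (SE 0.32, edgeR unadjusted p = 0.0220, adjusted p = 0.311). The log2 ratio of LATS1 to LATS2 reads, a pair chosen after its values were seen and therefore not tested, was 1.86, 0.66 and 0.90 in the controls and -0.42, -0.51 and -0.95 with cadmium. The LATS1 sum holds its exon 2 circles, listed only through their controls, so a lower ratio with cadmium was partly built in. The LATS1 circles ending at exon 7 had 38, 14 and 16 reads in the controls and 18, 10 and 16 with cadmium. STK3, the upstream kinase gene with the most circle reads of this group, had a log2 fold change of -0.11 (SE 0.11, edgeR adjusted p = 0.726) over 10 circles.

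Of the YAP, TAZ and TEAD factors, YAP1, the coactivator bound by TEADs, had 66, 28 and 50 reads in the controls and 27, 42 and 34 with cadmium. Its groups overlapped, and its log2 fold change was -0.17 (SE 0.25, edgeR adjusted p = 0.806). YAP1 is named here after its values were seen. The WWTR1 circle had 2 to 5 reads in each library and was not tested. TEAD2, TEAD3 and the 4 VGLL cofactor genes of the list have no circRNA in the files used here.

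Upstream, TNIK, a kinase gene of the MAP4K family, had 27, 23 and 26 reads in the controls and 13, 10 and 7 with cadmium (log2 fold change -1.05, SE 0.36, edgeR unadjusted p = 0.0112, adjusted p = 0.245). WWC3, which encodes a scaffold that promotes LATS activation, stood at 917 ± 77.5 CPM in controls and 722 ± 91.8 CPM with cadmium (SD, n = 3 each). This is a change of -0.34 on the log2 scale (SE 0.15, edgeR unadjusted p = 0.0397, adjusted p = 0.374). In both hosts each cadmium library lay below each control, as for 10.0% of all hosts tested. TAOK1, a kinase acting on STK3 and STK4, stood at -0.30 on the log2 scale (SE 0.28, edgeR adjusted p = 0.699). The single circle of FAT1, an atypical cadherin gene, is listed at 0 in cadmium replicate 2 and had 63 to 389 reads in the other libraries, so its log2 fold change of -0.22 (SE 1.40, edgeR adjusted p = 0.962) has little precision.

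Of the phosphatase complex STRIPAK, which counteracts STK3 and STK4, 7 of 18 genes were tested, with 3 values above 0 and 4 below. Its most read host was PPP2CA, a catalytic subunit gene (log2 fold change -0.11, edgeR adjusted p = 0.818). The ubiquitin ligase gene ITCH had -0.04 (edgeR adjusted p = 0.945). Of 16 genes known as YAP-TEAD targets, 6 were tested, with a median log2 fold change of 0.02. CRIM1, with 18 circles the most read of them, had 0.04 (SE 0.10, edgeR adjusted p = 0.900). CCN1 and CCN2, the usual reporter genes of YAP activity, have no circRNA in the files used here.

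**Figure D5:**
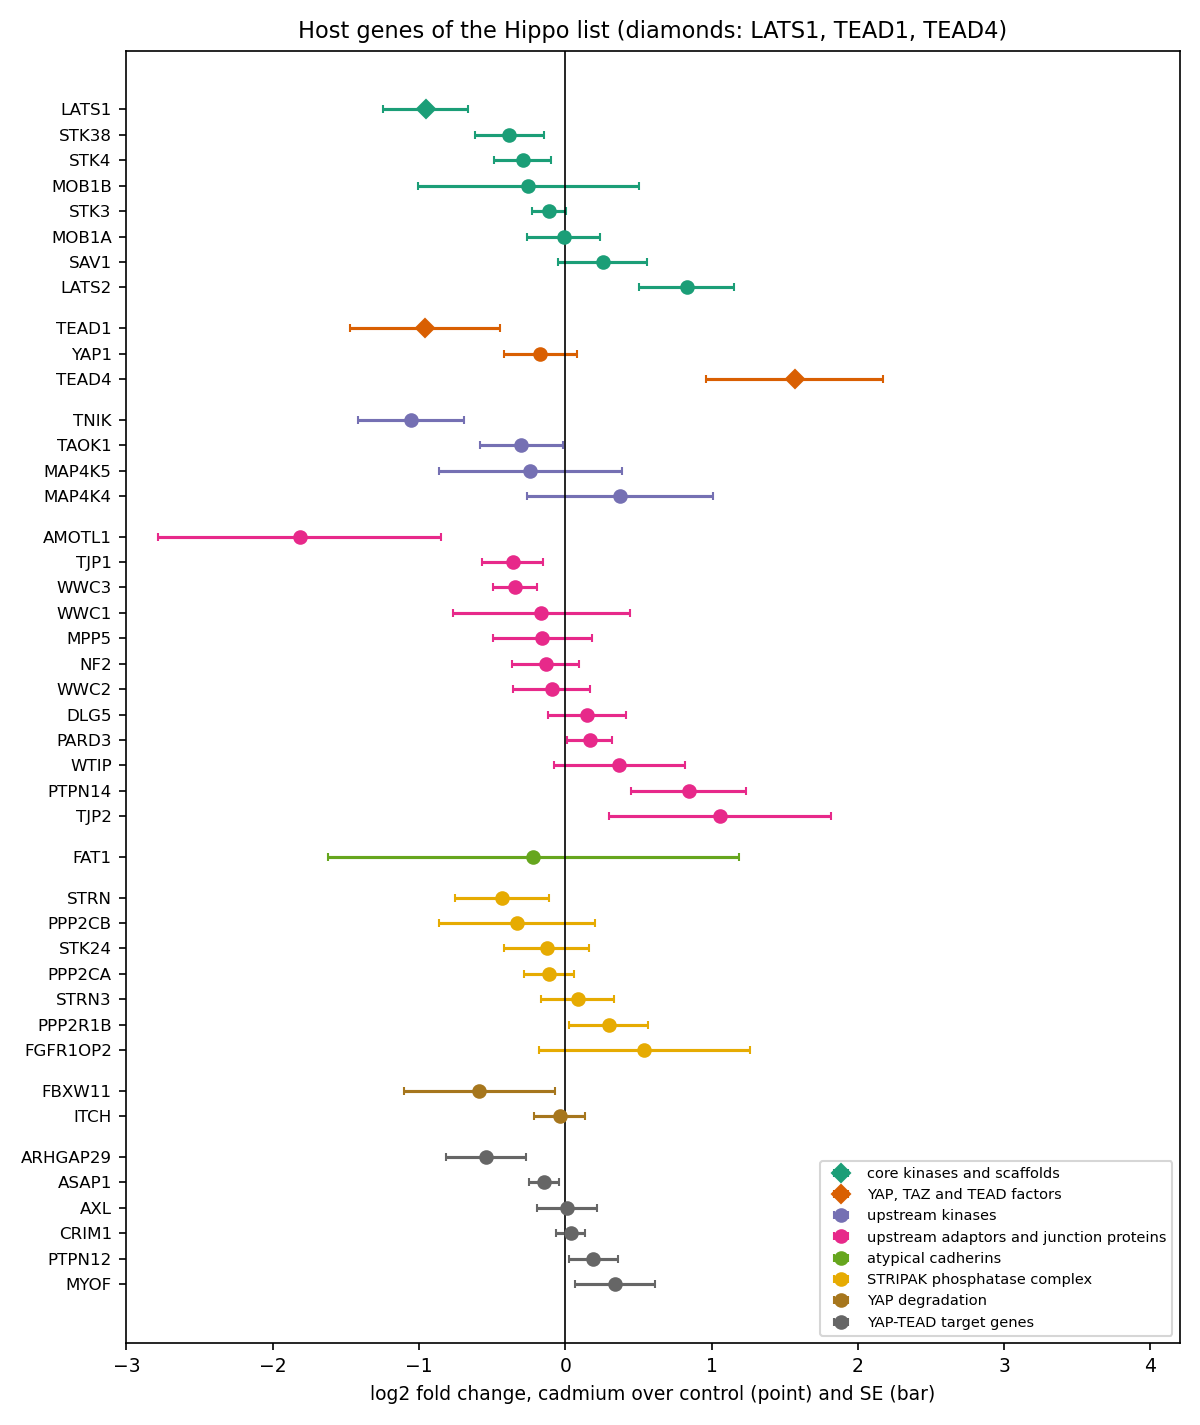
Log2 fold change of cadmium over control (horizontal axis, point) and its SE (bar) for the 43 tested host genes of the Hippo list, coloured by role. LATS1, TEAD1 and TEAD4 are drawn as diamonds. LATS1 and LATS2 lie on opposite sides of 0, as do TEAD1 and TEAD4, and no gene passed an adjusted p of 0.05. The sums of LATS1, TEAD1 and TEAD4 hold circles listed only through the group where they are higher, so their direction was partly built in.

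The hosts whose pattern over the 6 libraries was most like that of each member were found by the root mean square difference of log2 CPM after centring each gene. Among 3007 other hosts, LATS1 was nearest to MTR, the methionine synthase gene (difference 0.10 on the log2 scale, where the median over hosts was 0.59), then to SLC39A8, a zinc and cadmium importer gene (0.11), and ADAM10, a membrane protease gene (0.14). TEAD1, with its low cadmium replicate 3, was nearest to ASXL2 (0.23, median 1.05), NDRG3 (0.24) and NCBP1 (0.28). TEAD4 was nearest to UQCRC2 (0.17, median 0.74), ST3GAL6 (0.22) and GFOD2 (0.24). These are descriptions over 6 libraries.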

How the data were processed

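Per the file headers, the deposited counts are whole reads over each back-splice junction, and the authors' deposited TPM values are those counts scaled to the library total with no length term. The authors' deposited comparison gives group means of normalised reads (a signal), log2 fold changes and p-values. The submitters' processing notes name hg19, DESeq 1.10.1, Bowtie and Bowtie2 2.2.8 without their roles, and name no circRNA caller. The positions follow GRCh38, since 97.9% of exonic starts and 98.0% of ends lie on GENCODE 29 exon bounds.

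Counts of all circRNAs, and sums per host gene (240 circRNAs with several host genes and 74 with none left out), were tested in edgeR 4.0.16 (R 4.3.3) by its quasi-likelihood test with robust fitting and TMM scaling. Features passed filterByExpr at a minimum total of 15 and a minimum count of 5, and p-values were adjusted by Benjamini-Hochberg over all of them. Dividing the absolute log2 fold change by the root of F gave its SE. The test was tried on simulated data with the same spread set for every feature. At a true log2 change of 1 it called 25.8% of changed hosts and 8.8% of changed circRNAs, so most changes of that size were missed. Shares were compared by exact permutation tests in SciPy 1.17.1. Columns were matched to samples by group and replicate number in the titles. Alternatives used DESeq2 1.42.0 and limma 3.58.1 on log2(TPM + 1), other scalings and filters, the replicate block, and each library left out. Leaving out control replicates 1 and 3 together was added after seeing the data.

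Members, gene lists and tests were chosen with earlier results of these data known. Named were all member circles, listed hosts with an unadjusted p under 0.05, the most read host of each role, and the 3 hosts nearest in pattern to each member.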

Additional observations from a re-analysis of the deposited data

How the results depend on the processing

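No member circle or member host passed an adjusted p of 0.05 in any alternative that gave one (DESeq2 gave none for the 3 hosts and for the LATS1 circles), and LATS1 and TEAD1 stayed lower and TEAD4 higher with cadmium in every host fit that tested them. With single libraries left out, log2 fold changes ran from -1.11 to -0.80 for LATS1, -1.65 to -0.47 for TEAD1 and 1.32 to 1.86 for TEAD4, and for single circles from -6.31 to -1.98 (novel_circ_0033050), -0.80 to -0.32 (hsa_circ_0078224), -2.03 to -0.54 (novel_circ_0002248) and -0.76 to -0.05 (hsa_circ_0007058). The sign of novel_circ_0033047 turned under DESeq2 (0.013), limma (0.30) and the replicate block (0.12), ran from -0.42 to 0.74 with a library left out, and was 1.54 without control replicates 1 and 3, where that of hsa_circ_0007058 turned too (0.12). With only control replicate 2 kept, assumed to vary as the cadmium libraries do, LATS1 was at -0.96, TEAD1 at -0.73 and TEAD4 at 1.49. Calls over all circRNAs were 5, ranged from 0 to 13 with a library left out, and numbered 3 without control replicates 1 and 3. Calls over all hosts were 7, ranged from 3 to 13 with a library left out, and numbered 4 by limma, 3 without control replicates 1 and 3, and 16 without circRNAs listed at 0. That last setting drops the LATS1 exon 2 circles because they are listed at 0 in 3 and 2 cadmium libraries. Its LATS1 value of -0.31 covers the exon 7 circles alone and is no separate evidence. TEAD1, without its exon 3 circle, was at -0.45 there. The causes were not tested. The LATS1 to TEAD1 difference turned from 0.37 to -0.35 without cadmium replicate 3 (range -0.35 to 0.84). The junction share difference ran from -1.89 to 0.54 percentage points for TEAD4 (-0.63 with all libraries), -21.5 to -1.24 for LATS1 and -57.8 to -28.2 for TEAD1. The long TEAD4 circle passed the filter on low counts in some fits with control libraries or cadmium replicate 3 left out, with values of 2.13 to 5.49, the highest against controls all at 0. Hippo list hosts at an unadjusted p under 0.05 numbered 3 to 5 with a library left out, and 10 of 109 when single circRNAs replaced hosts. With the replicate number as a block, log2 fold changes were -0.93 for LATS1, -1.04 for TEAD1 and 1.63 for TEAD4, with 4 calls over circRNAs and 6 over hosts. Same-numbered libraries did not deviate together (correlations 0.000258, 0.0215 and 0.0517 over circRNAs), so the numbers were not taken as pairs. A ratio over the most read circles could not be computed, because that of TEAD1 is listed at 0 in cadmium replicate 3. Most single members had under 35 reads per library, which limits all circle values.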
